A study of Mus musculus with 6 samples.

Results

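The genes described here are the constitutive subunits of the mouse proteasome with its activators, its inhibitor and its assembly chaperones. They were chosen by symbol, as genes named Psma, Psmb, Psmc, Psmd, Psme, Psmf or Psmg followed by a number, with at least 10 reads summed over the 6 libraries, and without the inducible subunits Psmb8, Psmb9 and Psmb10 and the thymic subunit Psmb11. A total of 44 genes met the rule, out of 24054 in the table. The rule itself uses no difference between the groups, but it was set with earlier results of these data known. All 44 passed the filter on low counts and were tested.

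Messenger RNA of mouse thymus was sequenced from controls (3 libraries) and from mice of the genotype K5-rtTA:TetO-RANKL (3 libraries). In the latter, doxycycline lets the rtTA protein, made under the keratin 5 (K5) promoter of basal and medullary epithelial cells, switch on a transgene for the cytokine RANKL. The controls were monogenic, with no statement of which transgene they carried, and both groups received doxycycline in food and water. The age at the start was 9 weeks and the treatment 2 weeks in the sample labels, but 8 weeks and 1 week in the series text, and sex is not given. Whether each library is a different animal is not stated, and the p-values therefore reflect the variation among these 6 libraries, which may be technical.

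The proteasome is the protease that degrades proteins tagged with ubiquitin. Its barrel, the 20S core, stacks rings of alpha subunits (Psma), which gate the entrance, around rings of beta subunits (Psmb), which carry the catalytic sites inside. The 19S cap recognises and unfolds substrates with a ring of ATPases (Psmc) and a set of non-ATPase subunits (Psmd), and core and cap together form the 26S proteasome. Every nucleated cell needs this machine. The thymus is known for making exchange forms of the core as well, an immunoproteasome with Psmb8, Psmb9 and Psmb10 in blood cells and a thymoproteasome with Psmb11 in cortical epithelium, both of which alter the peptides shown to developing T cells.

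The proteasome genes changed little in a tissue in which most genes changed. Of the 44 genes, 1 was higher with RANKL, 6 were lower and 37 were not called (edgeR quasi-likelihood test, Benjamini-Hochberg adjusted p under 0.05 over 16096 genes). Among all genes tested the share called higher was 33.8%, the share called lower 29.6% and the share called in either direction 63.4%. The gene that rose was Psme2, a subunit of the PA28 activator, and the 6 that fell were the chaperones Psmg1, Psmg3 and Psmd5, the ATPases Psmc1 and Psmc3 and the lid subunit Psmd6. Fitted changes ran from a log2 fold change of -0.83 for Psmg1 to 0.87 for Psme2, so 0 of the 44 genes passed a 2-fold change, against 45.2% of all genes tested. The median size of change, taken without its sign, was 0.22 on the log2 scale for the 44 genes and 0.88 for all genes.

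**Figure D1:**
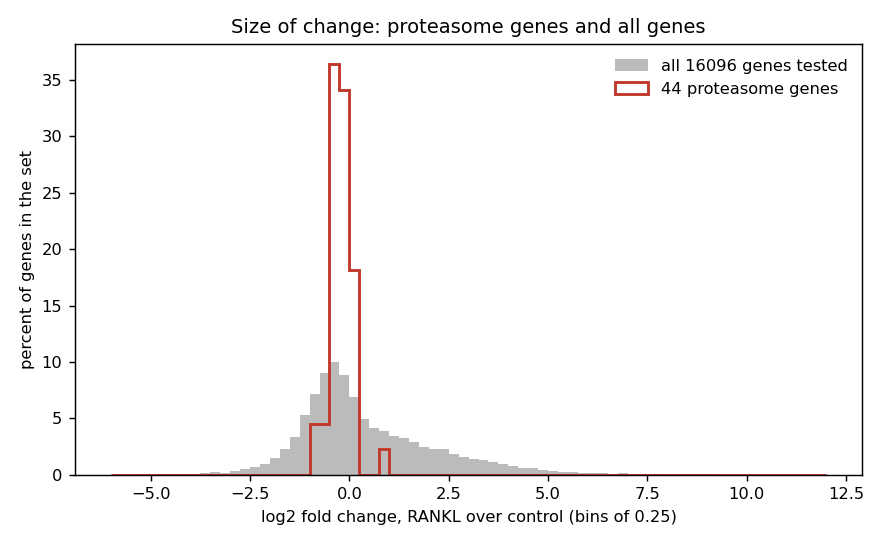
Percent of genes (vertical axis) by log2 fold change of RANKL over control in bins of 0.25 (horizontal axis), for all 16096 genes tested (grey) and the 44 proteasome genes (red line). The proteasome genes sit in a narrow peak between -0.83 and 0.87, while all genes run from -5.95 to 11.63.

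Missing a threshold does not show that a gene stayed the same, so the interval of each change was read as well. The 95% interval lay wholly within a 2-fold change in either direction for 40 of the 44 genes, against 28.8% of all genes tested. It lay within a 1.5-fold change for 17 of the 44, against 7.49% of all genes. The 4 genes whose intervals reached past 2-fold were Psme2, Psmg1, Psmg3 and Psma8. The proteasome genes were measured with more precision than the average gene, with a median standard error of 0.17 on the log2 scale against 0.24 for all genes tested.

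Small decreases were more common than small increases. The fitted log2 fold change was below 0 in 35 of the 44 genes, against 50.8% of all genes tested, and its median was -0.21 against -0.02 for all genes. That median was also negative with RLE factors (-0.21), upper-quartile factors (-0.11) and library totals (-0.19), and with upper-quartile factors 29 of the 44 genes were below 0 and 2 were called lower. Upper-quartile factors also moved the median of all genes to 0.08, and 25.6% of all genes were then called lower. Single libraries mattered. Without control replicate 3 the median was -0.08, 29 genes were below 0 and 2 were called lower, against 27.9% of all genes tested. Without control replicate 2 the median was -0.33 and 9 genes were called lower, against 26.1% of all genes tested. The number called lower was 2, 3 and 1 without RANKL replicates 1, 2 and 3. In the same runs 23.9%, 24.9% and 24.2% of all genes tested were called lower.

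**Figure D2:**
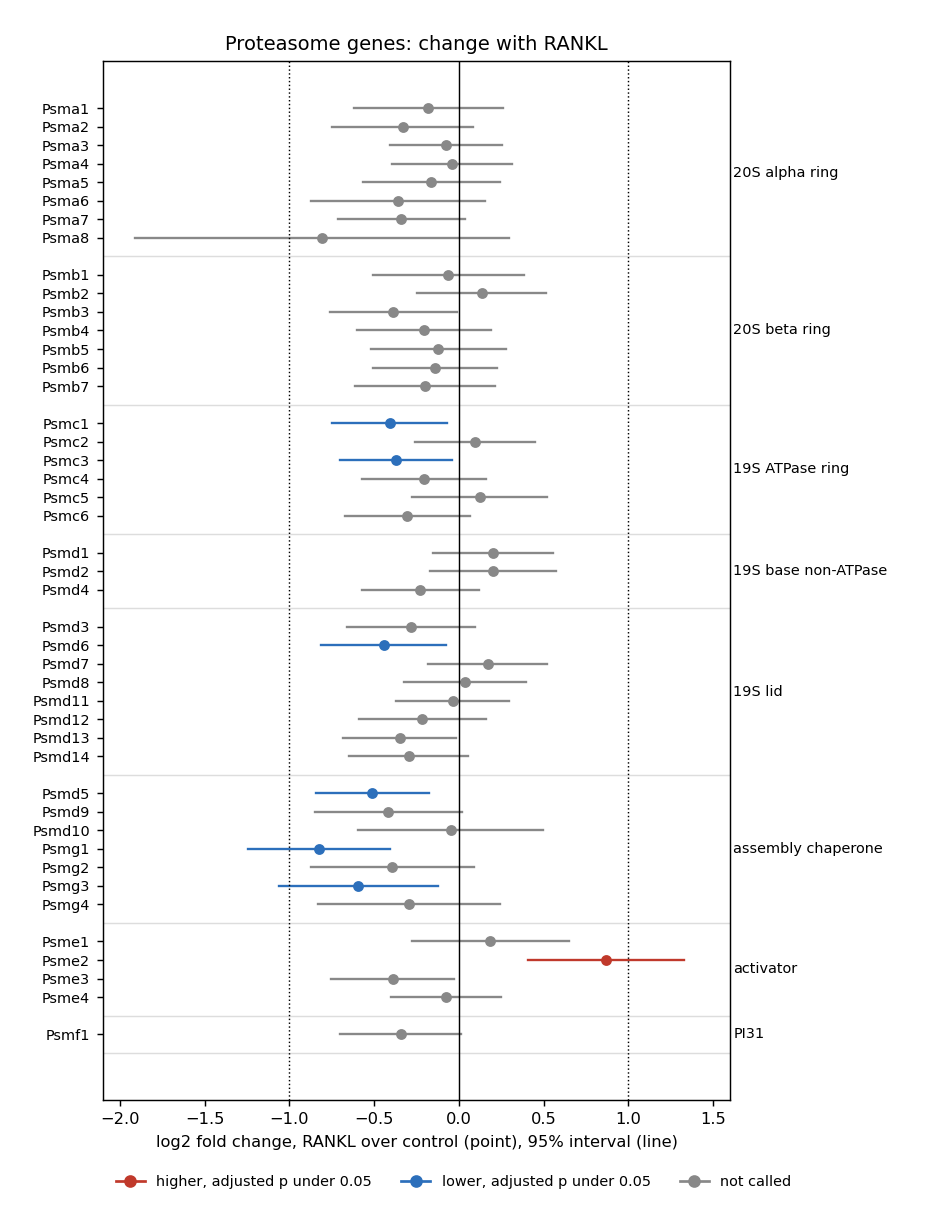
Log2 fold change of RANKL over control for each of the 44 genes (points, horizontal axis) with its 95% interval (lines), grouped by role; red is called higher, blue called lower, grey not called, and dotted lines mark a 2-fold change. Of the genes, 40 have intervals wholly between the dotted lines, and Psme2 is the only one called higher.

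The summed levels show the same from the side of the libraries. CPM values (counts of a gene relative to the total of the library, scaled for composition) of the 31 subunits of the 26S particle (Psma8 left out) summed to 5431, 5159 and 6700 in control replicates 1 to 3. In the RANKL replicates the sums were 5156, 5259 and 5171. Control replicate 3 was high, and the RANKL libraries stood close to the lower pair of controls, with an SD of 55.8 against 823 among controls. As a share of all reads, with no scaling for composition, the 44 genes took 0.619%, 0.634% and 0.772% in the controls and 0.640%, 0.606% and 0.661% with RANKL. The groups overlap on this measure. Over the genes, the median SD of log2 CPM was 0.219 among controls and 0.098 among RANKL libraries, and over all genes tested 0.276 and 0.237.

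Tnfsf11, which encodes RANKL, stood at 6.01 to 8.89 CPM in the controls and at 2390 to 4812 with RANKL. Cell markers differed widely between the same libraries. Library totals ran from 18254870 to 25357060 counts. The summed CPM of 10 markers of double-positive thymocytes ran from 9268 to 10284 in the controls and from 236 to 969 with RANKL, and all 10 were called lower. The sum of 10 cell cycle genes ran from 2635 to 3381 and from 687 to 827, also with all 10 called lower. For 9 thymic epithelial genes, all called higher, the sums ran from 1129 to 1387 and from 5599 to 7028. For 7 genes listed as fibroblast markers, 6 of them called higher and 1 lower, the ranges were 1755 to 2063 and 4211 to 7906. That list includes Thy1, which is not particular to fibroblasts, so these sums are not of fibroblast RNA alone. Cornified keratinocyte genes (7 of 7 higher, 40.3 to 60.0 against 1174 to 3240), neutrophil genes (6 of 6 higher, 40.8 to 68.5 against 1966 to 4649) and macrophage genes (6 of 6 higher, 458 to 630 against 1436 to 1995) stood apart in the same way. Of the endothelial genes 2 of 4 were called higher, with sums of 175 to 211 and 215 to 291, and of the B cell genes 0 of 4 were called by edgeR (1 at an unadjusted p under 0.05, and 1 called by DESeq2 and by limma-voom), with sums of 63.1 to 67.2 and 22.1 to 63.6. Of 4 erythroid genes, Hba-a1 and Hbb-bs had no read in any library, and the sums ran from 3.54 to 30.7 and from 2.44 to 16.0. In whole tissue, fewer cells of a type and less RNA per cell cannot be told apart, and the part of these shifts in the values of the proteasome genes was not tested.

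In the alpha ring, 0 of 8 genes were called by edgeR, and 0 had an unadjusted p under 0.05 or a call by DESeq2 or limma-voom. Among all genes tested, edgeR called 63.4% in either direction, and 67.2% had an unadjusted p under 0.05. The median log2 fold change of the alpha ring was -0.26, and Psma1 to Psma7 lay between -0.36 for Psma6 and -0.04 for Psma4. Psma4 stood at 161, 171 and 201 CPM in the controls and at 180, 158 and 181 with RANKL, and the groups overlap. Psma6 stood at 233, 268 and 418 CPM against 233, 214 and 269. Its wide interval, -0.87 to 0.15, goes with the high value in control replicate 3. Both Psma2 and Psma7 were below all controls in every RANKL library, yet neither was called, with log2 fold changes of -0.33 and -0.34 (edgeR adjusted p of 0.143 and 0.103).

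Psma8, the alpha subunit that takes the place of Psma7 in male germ cells, was close to undetected. It had 16, 10 and 17 reads in the controls and 6, 15 and 6 with RANKL, or 0.844, 0.515 and 0.812 CPM against 0.323, 0.610 and 0.283. For scale, 3 reads equal 0.122 to 0.161 CPM, depending on the library. Its fitted log2 fold change was -0.81, with an interval from -1.91 to 0.30 that covers both a large decrease and a small increase, so no difference was detectable at this depth. Summed CPM of 4 germ cell markers ran from 2.32 to 2.91 and from 2.68 to 4.67, with 1 of the 3 tested called higher.

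The beta ring held 0 called genes of 7 by edgeR, DESeq2 and limma-voom, with a median of -0.14, and 1 (Psmb3) had an unadjusted p under 0.05. The edgeR shares of all genes tested were 63.4% called and 67.2% at an unadjusted p under 0.05. Psmb5, the chymotrypsin-like catalytic subunit, stood at 34.8, 35.9 and 48.1 CPM in the controls and at 35.6, 38.7 and 34.9 with RANKL. Psmb6, the caspase-like subunit, stood at 180, 188 and 237 against 193, 181 and 175. Psmb7, the trypsin-like subunit, stood at 167, 167 and 245 against 169, 168 and 167. In each of the catalytic trio the groups overlap, and control replicate 3 was the highest library. Their log2 fold changes were -0.12 (95% interval -0.52 to 0.28), -0.14 (-0.50 to 0.23) and -0.20 (-0.61 to 0.21).

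At the ends of the beta ring were Psmb2 and Psmb3, which have no catalytic site. Psmb2 stood at 118, 120 and 163 CPM in the controls and at 146, 148 and 147 with RANKL, a log2 fold change of 0.13 with overlapping groups. Psmb3 stood at 177, 152 and 205 against 151, 128 and 130, with every RANKL library below every control. At a log2 fold change of -0.39 it missed the threshold (edgeR adjusted p = 0.0656). Psmb3 passed without control replicate 2, at -0.52 (0.0359), with a title-number block, at -0.49 (0.0485), and with no low-count filter, at -0.48 (0.0326). The block holds control replicate 2 alone in its range, so the blocked run is close to the run without that library.

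Psmb5 lies beside Psmb11, the gene with the lowest fitted change of all genes tested. On chromosome 14 of GRCm38 Psmb5 runs from 54614120 to 54617995, and Psmb11, whose product replaces it in cortical epithelium, runs from 54625310 to 54629556, a gap of 7314 bases. Psmb11 stood at 130, 108 and 137 CPM in the controls and at 1.29, 0.325 and 4.48 with RANKL. Its log2 fold change was -5.95 ± 0.67 (edgeR adjusted p = 7.84e-05), against -0.12 ± 0.18 for Psmb5 (0.567). Reads of Psmb11 per read of Psmb5 were 3.73, 3.01 and 2.85 in the controls and 0.0363, 0.00841 and 0.128 with RANKL.

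The inducible subunits, which replace the catalytic trio in immunoproteasomes, were not called either. Psmb8, which replaces Psmb5, stood at 453, 386 and 497 CPM in the controls and at 492, 302 and 466 with RANKL. Psmb9, which replaces Psmb6, stood at 166, 166 and 223 against 219, 124 and 209. Psmb10, which replaces Psmb7, stood at 159, 134 and 198 against 185, 109 and 183. RANKL replicate 2 was the lowest of all 6 libraries for each of them, and the other RANKL libraries lay within or near the control range. Log2 fold changes were -0.08 (95% interval -0.57 to 0.40), -0.01 (-0.53 to 0.52) and -0.04 (-0.57 to 0.48).

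Shares within a library do not depend on the scaling between libraries. Psmb8, Psmb9 and Psmb10 together took 67.1%, 63.8% and 63.4% of the reads of the 6 exchangeable catalytic subunits in the controls and 69.3%, 58.0% and 69.5% with RANKL. The means were 64.7 ± 2.02% and 65.6 ± 6.59% (SD, n = 3; exact two-sided permutation test p = 0.8, adjusted over 3 shares 0.8). The difference of 0.852 percentage points became 4.66 without RANKL replicate 2, -0.987 without RANKL replicate 1 and -1.115 without RANKL replicate 3. With 3 libraries against 3 the smallest p such a test can give is 0.1.

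**Figure D3:**
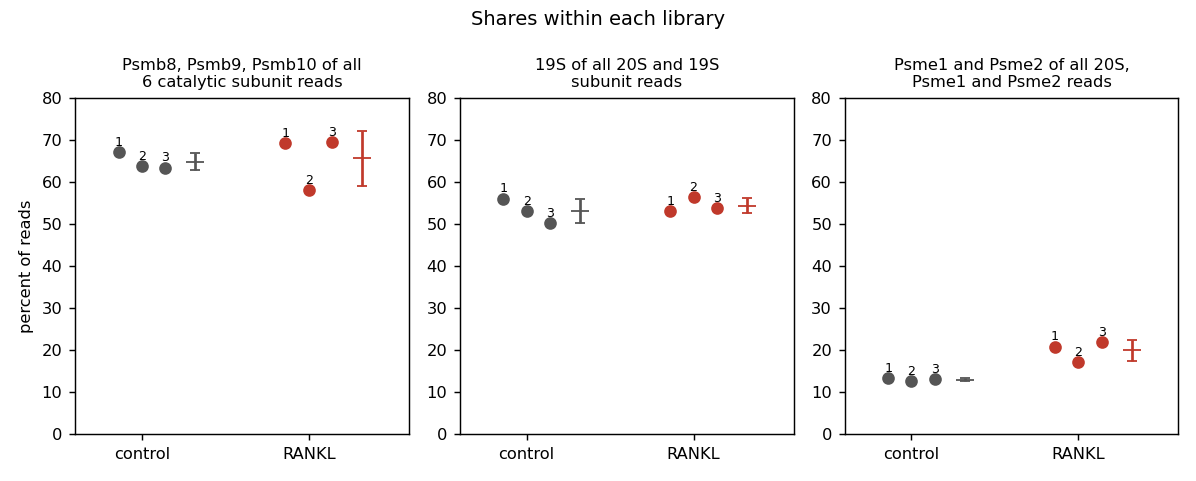
Percent of reads (vertical axis) in each library (points, numbered by replicate) with mean and SD (bars to the right), for the inducible catalytic subunits, the 19S subunits and PA28 alpha and beta. The first pair of groups overlaps, as does the second, while PA28 takes 12.5% to 13.3% in the controls and 17.1% to 21.9% with RANKL.

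Among the ATPases that thread substrates into the core, 2 of 6 fell (33.3%, against 29.6% of all genes tested) and 4 were not called. Psmc1 stood at 207, 192 and 233 CPM in the controls and at 148, 165 and 164 with RANKL. Psmc3 stood at 257, 243 and 281 against 202, 204 and 196. In both genes every RANKL library was below every control, by a log2 fold change of -0.41 ± 0.15 (edgeR adjusted p = 0.0386) and -0.37 ± 0.15 (0.0482). Psmc5 had the highest fold change of the ring, at CPM values of 134, 141 and 193 against 162, 176 and 171, a log2 fold change of 0.12 with overlapping groups. Psmc2, Psmc4 and Psmc6 were at 0.10, -0.21 and -0.30.

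Neither ATPase call was firm. The call of Psmc1 was lost without control replicate 1 (0.0526) or 3 (0.0747), without RANKL replicate 1 (0.161), 2 (0.0754) or 3 (0.107) and with upper-quartile factors (0.0925). The call of Psmc3 was lost without control replicate 1 (0.0665) or 3 (0.0795), without RANKL replicate 1 (0.138), 2 (0.105) or 3 (0.169), with upper-quartile factors (0.126), with a filter of 1 CPM in 3 libraries (0.0606), without robust estimation (0.053) and with a block for the title number (0.0613). In these runs the log2 fold change lay between -0.45 and -0.31 for Psmc1 and between -0.43 and -0.27 for Psmc3.

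The base also holds non-ATPase subunits, and 0 of 3 were called by edgeR, DESeq2 or limma-voom, or had an unadjusted edgeR p under 0.05. Of all genes tested, edgeR called 63.4%, and 67.2% had an unadjusted p under 0.05. Psmd2, a scaffold that docks ubiquitin shuttles, stood at 345, 267 and 325 CPM in the controls and at 344, 388 and 345 with RANKL, a log2 fold change of 0.20 (95% interval -0.17 to 0.57). Psmd1, the other large scaffold, was at 0.20 as well. Psmd4, a receptor for ubiquitin chains, stood at 188, 180 and 226 against 165, 173 and 169. All RANKL libraries were below all controls for Psmd4, but the log2 fold change of -0.23 was not called (edgeR adjusted p = 0.218).

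In the lid, which removes ubiquitin chains, 1 of 8 genes fell (12.5%, against 29.6% of all genes tested) and 7 were not called. Psmd6, a lid scaffold, stood at 95.1, 90.4 and 118 CPM in the controls and at 68.2, 82.3 and 72.8 with RANKL, without overlap. Its log2 fold change was -0.44 ± 0.16 (edgeR adjusted p = 0.038), and the call was lost without control replicate 3 (0.0852), RANKL replicate 1 (0.161) or RANKL replicate 3 (0.136) and with upper-quartile factors (0.0855), at log2 fold changes between -0.40 and -0.33. Psmd14, the deubiquitinase of the lid, stood at 131, 129 and 165 against 112, 119 and 114. It was below all controls in all RANKL libraries, but was not called at -0.30 (0.122). Psmd7, the binding partner of Psmd14, had the highest fold change of the lid, at CPM values of 124, 110 and 138 against 134, 154 and 129, a log2 fold change of 0.17 with overlapping groups. Psmd3, Psmd8, Psmd11, Psmd12 and Psmd13 lay between -0.35 for Psmd13 and 0.04 for Psmd8, and Psmd13 passed with no low-count filter, at -0.44 (0.0376).

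The balance of cap to core did not differ beyond the spread between libraries. Reads of the 17 cap subunits made up 56.0%, 53.1% and 50.2% of all 26S subunit reads in the controls and 53.0%, 56.3% and 53.8% with RANKL. The means were 53.1 ± 2.91% and 54.4 ± 1.67% (SD, n = 3; exact two-sided permutation test p = 0.5, adjusted 0.75). The difference of 1.24 percentage points turned to -0.207 without control replicate 3.

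The assembly chaperones, which build the particle and then leave it, had the lowest median of any role, -0.42. Of 7 genes 3 were lower (42.9%, against 29.6% of all genes tested) and 4 were not called. The role holds only genes that met the symbol rule, so the chaperone Pomp, at a log2 fold change of 0.02, is not in it. Psmg1, which with Psmg2 starts the alpha ring, stood at 30.7, 31.1 and 41.9 CPM in the controls and at 17.9, 20.6 and 19.9 with RANKL. No RANKL library reached the lowest control, and the log2 fold change was -0.83 ± 0.19 (edgeR adjusted p = 0.00364). Psmg3, which pairs with Psmg4 in a later step of the same ring, stood at 23.2, 22.9 and 34.5 against 16.8, 18.2 and 18.3, a log2 fold change of -0.60 ± 0.21 (0.0309). Psmd5, a chaperone of the ATPase ring, stood at 75.9, 65.7 and 77.9 against 54.1, 48.5 and 51.6, a log2 fold change of -0.51 ± 0.15 (0.0132). The groups do not overlap in any of these 3 genes.

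Psmg1 kept its call with each library left out and with each of the other scalings and tools tried, and lost it only in the test against a 1.5-fold change (edgeR adjusted p = 0.0788). Psmd5 lost its call without RANKL replicate 3, at -0.48 (0.0557). Psmg3 lost it without control replicate 3 (0.0871), without RANKL replicate 1 (0.113), 2 (0.0707) or 3 (0.0868) and with upper-quartile factors (0.0659), at log2 fold changes between -0.61 and -0.39. Psmg2, the partner of Psmg1, was not called at -0.39 (0.133), nor was Psmg4, the partner of Psmg3, at -0.29 (0.303). Psmg2 passed without control replicate 1, at -0.59 (0.0278). The differences within the pairs were not tested. Psmd10, another chaperone of the ATPase ring, stood at 28.8, 30.5 and 52.7 CPM in the controls and at 32.6, 34.6 and 41.1 with RANKL, a log2 fold change of -0.05 (95% interval -0.59 to 0.50), and Psmd9 was at -0.42 (0.086). Psmd9 passed with a block for the title number, at -0.56 (edgeR adjusted p = 0.0245), and with no low-count filter, at -0.51 (0.0467).

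Activators bind the ends of the core in place of the 19S cap, and they held the gene that rose. Psme2, the beta subunit of PA28, which interferon is known to induce together with the immunoproteasome, stood at 173, 174 and 242 CPM in the controls and at 395, 285 and 395 with RANKL. Every RANKL library was above every control. That was 196 ± 39.4 against 358 ± 63.9 CPM (mean ± SD, n = 3), 1.82-fold, or a log2 fold change of 0.87 with an SE of 0.20 (edgeR adjusted p = 0.0045). Psme1, the alpha subunit that alternates with it in the same ring, stood at 192, 171 and 256 CPM in the controls and at 240, 189 and 275 with RANKL. Its groups overlap, and its log2 fold change was 0.18 (95% interval -0.28 to 0.65).

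**Figure D4:**
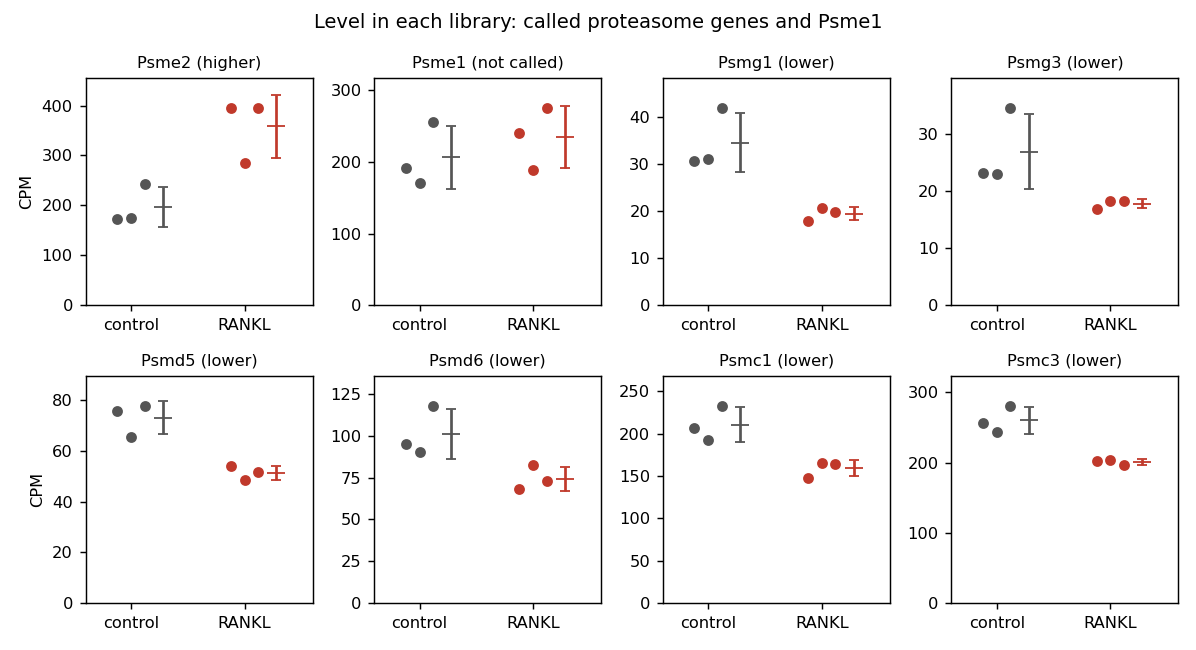
CPM (vertical axis, from 0) in each library (points, replicates 1 to 3 from left to right) with mean and SD (bars), for the 7 called genes and Psme1. Groups do not overlap in the called genes, with Psme2 at 173 to 242 in the controls and 285 to 395 with RANKL, and they overlap in Psme1.

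Within each library, Psme2 had 0.900, 1.02 and 0.946 reads per read of Psme1 in the controls and 1.65, 1.51 and 1.44 with RANKL, a ratio looked at after its values were seen. The ratio was above every control in every RANKL library, and scaling between libraries does not enter it. Psme1 and Psme2 together took 13.3%, 12.5% and 13% of their own and the 20S subunits' reads in the controls and 20.8%, 17.1% and 21.9% with RANKL. The libraries did not overlap, with means of 12.9 ± 0.386% and 19.9 ± 2.53% (SD, n = 3), and the exact two-sided permutation test gave p = 0.1, the smallest it can give, or 0.3 adjusted over 3 shares. The difference of 7.0 percentage points ran from 6.01 to 8.43 with 1 library left out. Psme2b, a copy of Psme2 elsewhere in the genome, was named after its values were seen and stood at 5.43, 5.31 and 7.26 CPM in the controls and at 12.9, 9.11 and 11.2 with RANKL. Its log2 fold change was 0.88 ± 0.26 (edgeR adjusted p = 0.0135), and reads of such copies may be exchanged with Psme2, so neither value is certain.

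Psme2 and Psme1 lie 5912 bases apart on chromosome 14, Psme1 from 55578494 to 55581527 and Psme2 from 55587440 to 55591101 in GRCm38. Their promoters are shown because one of these neighbours was called and the other was not, beside those of Psmg1, the gene with the largest called decrease, and Psmb5, a catalytic subunit that was not called. Each run, from RefSeq on GRCm38.p6, holds 250 bases before and 50 after an annotated start, 5′ to 3′ along the gene's own strand, with matches to the motifs given after them in capitals.
Psme2 (chr14:55591052-55591351, minus strand): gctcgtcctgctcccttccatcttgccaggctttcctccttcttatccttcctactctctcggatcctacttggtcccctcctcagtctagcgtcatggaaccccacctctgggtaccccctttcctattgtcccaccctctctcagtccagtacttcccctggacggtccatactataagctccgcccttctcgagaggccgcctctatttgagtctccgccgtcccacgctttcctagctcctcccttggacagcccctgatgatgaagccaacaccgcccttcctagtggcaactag
Psme1 (chr14:55578244-55578543, plus strand): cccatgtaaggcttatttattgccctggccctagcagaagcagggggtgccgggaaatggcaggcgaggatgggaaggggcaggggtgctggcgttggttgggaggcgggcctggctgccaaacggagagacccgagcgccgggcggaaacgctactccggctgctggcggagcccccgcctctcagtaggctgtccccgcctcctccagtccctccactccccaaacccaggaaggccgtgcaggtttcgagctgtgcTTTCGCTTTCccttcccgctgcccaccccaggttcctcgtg
Psmg1 (chr16:95990911-95991210, minus strand): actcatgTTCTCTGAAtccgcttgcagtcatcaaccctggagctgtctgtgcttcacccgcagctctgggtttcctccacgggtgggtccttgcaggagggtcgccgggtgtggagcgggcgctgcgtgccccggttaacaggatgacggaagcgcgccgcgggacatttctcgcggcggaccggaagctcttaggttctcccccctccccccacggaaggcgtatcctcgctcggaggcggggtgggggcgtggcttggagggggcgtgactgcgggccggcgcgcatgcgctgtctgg
Psmb5 (chr14:54617946-54618245, minus strand): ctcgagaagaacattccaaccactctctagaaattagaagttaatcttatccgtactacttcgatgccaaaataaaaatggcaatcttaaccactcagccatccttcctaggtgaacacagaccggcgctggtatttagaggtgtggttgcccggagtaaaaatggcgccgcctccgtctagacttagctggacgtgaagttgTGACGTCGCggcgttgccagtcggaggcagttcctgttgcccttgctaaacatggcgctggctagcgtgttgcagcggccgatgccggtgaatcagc

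A set of 5 motifs was searched on both strands, and a match may overlap another. They were the CCAAT box (CCAAT), the antioxidant response element core (TGACNNNGC), bound by the NRF factors that are known to drive proteasome genes, the gamma-activated site (TTCNNNGAA), the interferon-stimulated response element core (GAAA, any 2 bases, GAAA) and an NF-kB site core (GGGA, any 4 bases, CC). The capitals mark an interferon-stimulated element in Psme1, a gamma-activated site in Psmg1 and an antioxidant response element in Psmb5, while neither of the 2 Psme2 windows holds any of the motifs. Promoters were given for 36 of the 44 genes. Shares are given beside those of the tested genes with a promoter and of all genes with one. The CCAAT box was in 33.3% of the proteasome promoters, 42% of tested genes and 41.1% of all genes. For the antioxidant element (Psmb5, Psmb6, Psmc6, Psmd9, Psmd12 and Psme4) the shares were 16.7%, 16.8% and 14%, and for the gamma-activated site 5.56%, 8.42% and 9.55%. The interferon-stimulated element (Psmb3, Psmd4, Psmd9, Psme1 and Psmg4) was in 13.9%, 3.85% and 3.99%, and the NF-kB core in 25%, 29.9% and 22.9%. These are letter matches and say nothing of binding.

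The other activators act mainly in the nucleus. Psme3, which forms PA28 gamma, stood at 214, 159 and 173 CPM in the controls and at 137, 134 and 146 with RANKL. All RANKL libraries were below all controls, and the log2 fold change of -0.39 missed the threshold (edgeR adjusted p = 0.0585), though it passed without control replicate 2, at -0.51 (0.038), and with no low-count filter, at -0.48 (0.0259). Psme4, which encodes the PA200 cap, stood at 129, 134 and 137 against 117, 139 and 124, a log2 fold change of -0.07 (95% interval -0.40 to 0.25). Psmf1, which encodes PI31, a protein that inhibits the core in the test tube, stood at 63.7, 51.7 and 65.1 against 49.7, 43.6 and 48.9. Its groups do not overlap, and it was not called at -0.34 (0.0828) but passed without control replicate 2, at -0.47 (0.0439), with the title-number block, at -0.43 (0.0464), and with no low-count filter, at -0.44 (0.045).

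Across all roles, CPM values of the groups did not overlap in 16 of the 44 genes, 15 of them lower with RANKL and 1 higher. Among all genes tested the shares without overlap were 34.1% lower and 36.1% higher. The share of proteasome genes that were lower without overlap was thus near that of all genes, while 10 of the 44 had an unadjusted p under 0.05 by edgeR, against 67.2% of all genes.

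Levels between genes can be compared roughly once reads are divided by transcript length (RPKM, CPM per kilobase). The length was that of the longest transcript paired with a RefSeq mRNA, which need not be the one expressed. Although the 20S subunits are present in equal numbers in the particle, their mRNA levels ran 6.68-fold apart in the controls, from 44.0 ± 8.19 RPKM for Psmb5 to 294 ± 94.4 for Psma6 (SD, n = 3), with a median of 154 over 14 genes. With RANKL they ran 5.66-fold apart, from 40.5 ± 2.23 for Psmb5 to 229 ± 11.7 for Psmb6. The next lowest after Psmb5 was Psma3 in both groups, at 56.2 ± 5.60 and 53.4 ± 1.09, whose annotated transcripts differ much in length. In the controls Psmb5 and Psma3 differed by less than the sum of their SDs, as did Psma6 and Psma7, the latter at 278 ± 36.8. Cap subunits ran from 38.0 ± 2.33 for Psmd11 to 159 ± 11.8 for Psmc3 in the controls. Chaperones lay between 16.6 ± 1.49 for Psmd5 and 39.6 ± 9.87 for Psmg2, and all but Psmg2 had means below that of Psmd11. PA28 stood near the top, with Psme2 at 204 ± 40.9 and Psme1 at 185 ± 39.6. With RANKL Psme2 reached 372 ± 66.4, the highest mean of the 44 genes. The inducible Psmb8 stood at 274 ± 34.3 in the controls, against 44.0 for Psmb5, which it replaces.

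**Figure D5:**
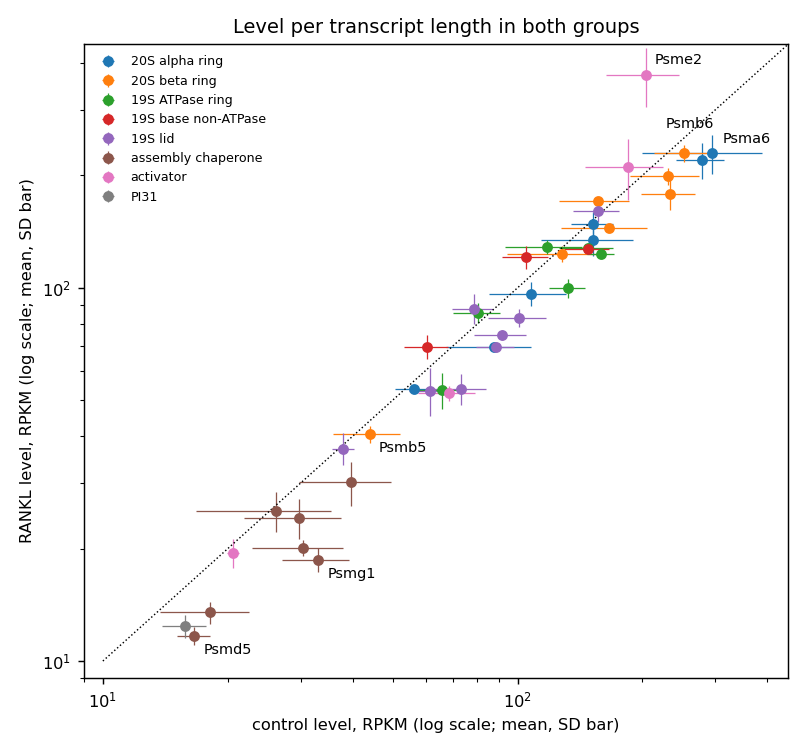
Mean RPKM in RANKL (vertical, log scale) against control (horizontal, log scale) for 43 of the genes, coloured by role, with SD bars; Psma8 is left out for its low level, and the dotted line marks equal levels. Psme2 lies above the line at 204 and 372 RPKM, Psmg1 below it at 33.1 and 18.7, and Psmb5 near it at 44.0 and 40.5.

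Genes that work with the proteasome were read from a list of 34, of which 33 were in the table and 32 were tested. Of these 4 were higher (12.5%), 8 lower (25%) and 20 not called, with a median of -0.17. Among all genes tested 33.8% were higher and 29.6% lower, so the share of partners called lower was near that of all genes. Nfe2l1, the transcription factor that raises proteasome genes when the protease falls short, stood at 279, 187 and 191 CPM in the controls and at 461, 351 and 390 with RANKL. That was a log2 fold change of 0.87 ± 0.21 (edgeR adjusted p = 0.00443), without overlap. Nfe2l2, its relative in the oxidative stress response, rose by 0.74 ± 0.16 (0.00285), and Ngly1, the enzyme that activates the Nfe2l1 protein by removing its sugars, fell from 59.7 ± 10.5 CPM (SD, n = 3) to 31.2 ± 2.43, at a log2 fold change of -0.93 ± 0.18 (edgeR adjusted p = 0.00124). Of the 15 genes of the 20S core, Psma8 included, 0 were called by edgeR and 1 had an unadjusted p under 0.05. Of the 17 genes of the 19S cap, 0 were called higher and 3 lower. Among all genes tested 63.4% were called in either direction. A link between the rise of Nfe2l1 and the levels of these genes was not tested.

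Genes of ubiquitin supply and activation were called as well. Ubb, a polyubiquitin gene, stood at 45.7, 44.1 and 49.9 CPM in the controls and at 34.2, 30.5 and 31.7 with RANKL. The groups do not overlap, and Ubb fell by 0.54 on the log2 scale (edgeR adjusted p = 0.0118), though without RANKL replicate 3 the gene was not called, at -0.50 (0.0599). Uba6, a ubiquitin-activating enzyme, fell by 0.62 (0.032). The call of Uba6 did not hold without control replicate 1 (0.101) or 2 (0.0662), without RANKL replicate 1 (0.0774) or 3 (0.127), with upper-quartile factors (0.0591) or when title numbers were blocked (0.101), at log2 fold changes between -0.65 and -0.46.

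Partners that bind the particle were mostly not called. Pomp, the chaperone that closes the core, was at a log2 fold change of 0.02 (95% interval -0.43 to 0.46), Adrm1, a ubiquitin receptor of the cap, at 0.03 (-0.30 to 0.36), and Usp14, a deubiquitinase of the cap, at 0.32 (-0.0027 to 0.64). Usp14 passed with upper-quartile factors (edgeR adjusted p = 0.0236) and with the filter of 1 CPM (0.0497). Uchl5, the deubiquitinase that Adrm1 holds in place, fell to 35.1 ± 7.46 CPM from 66.3 ± 14.4 (SD, n = 3), with -0.92 ± 0.22 as its log2 fold change (edgeR adjusted p = 0.00462). Faf1, an adaptor of the segregase Vcp, fell by 0.46 (0.0174). Ipo9, an importin that carries proteasomes into the nucleus, fell by 0.57 (0.0297). Zfand5, an activator of the cap, rose by 0.67 ± 0.20 (0.0153), to 123 ± 32.3 CPM from 77.5 ± 7.77 (SD, n = 3).

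Several of these calls were lost with fewer libraries. Faf1 lost its call without RANKL replicate 1 (0.0803) or 3 (0.079), at log2 fold changes of -0.40 and -0.43. Ipo9 lost it without control replicate 1 (0.0884) or 2 (0.0607) and without RANKL replicate 1 (0.0667) or 3 (0.0907), with upper-quartile factors (0.0578) and with the block (0.1), at log2 fold changes between -0.59 and -0.39. Zfand5 lost it without control replicate 1 (0.0527) or 2 (0.0565), at 0.58 and 0.64, and without RANKL replicate 2 (0.0649), at 0.44.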

How the data were processed

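Whole-thymus mRNA was measured in 6 libraries, 3 per group, from 250 ng of RNA with a stranded kit. The authors deposited unnormalized integer counts for each gene in every library. STAR and the mm10 build are named in the submitters' processing notes. No source used here gives the counter, strand setting or annotation, so overlapping and near-identical genes may share reads. Depth ran from 18254870 to 25357060 counts; floors cover counting error only.

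The whole table was fitted with edgeR 4.0.16 in R 4.3.3 (filterByExpr, TMM, robust quasi-likelihood test, two-sided, no covariate), and p-values were adjusted over 16096 genes. Standard errors and 95% intervals derive from the F statistic. Shares were tested by exact permutation with scipy 1.17.1. The code was tested on simulated data. RPKM used the longest GENCODE M21 transcript paired with a RefSeq mRNA, found for all 44 genes; gene coordinates are RefSeq's on GRCm38.

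The genes and lists were chosen with earlier results of these data known. Per-library values are given for the catalytic and activator genes, Psma8, Psmd4, Psmd14, the highest and lowest gene of each role and called genes. Of the working partners, 5 genes and, per direction, up to 6 called genes with the smallest p are named; Uba6 was named after its values were seen, and some genes of that list are counted but not reported here by name. Alternatives were other factors and filters, DESeq2 1.42.0, limma-voom from limma 3.58.1, a stricter threshold, a test against 1.5-fold, a block for the title number and each library left out. Figures used matplotlib 3.10.9.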

Additional observations from a re-analysis of the deposited data

How the results depend on the processing

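Psme2 was the only proteasome gene called higher in every run but the test against a 1.5-fold change, which called 0 higher and 0 lower among the 44 genes (edgeR; 2 at an unadjusted p under 0.05, and 7 called in either direction by DESeq2 and by limma-voom in the plain test), 0 higher and 1 lower among their partners and 2654 lower genes in all. The test against 1.5-fold called 27.4% of all genes higher and 16.5% lower. The number of proteasome genes called lower, 6 in the report, was 2 with upper-quartile factors, 11 with no low-count filter and 1 at an adjusted p under 0.01. It ran from 1 to 9 with 1 library left out. DESeq2 called 6 lower, limma-voom 6 and the fit with a block for the title number 8. The share of all genes called lower, 29.6% in the report, was 25.6% with upper-quartile factors, 25.6% with no low-count filter and 21.1% at the stricter threshold. With 1 library left out that share ran from 23.9% to 27.9%. It was 30.3% with DESeq2, 29.4% with limma-voom and 28.3% with the block. Upper-quartile factors moved the median of all genes from -0.02 to 0.08. The lower count of partner genes, 8, was 4 with upper-quartile factors, 2 at the stricter threshold, and 2 to 7 with 1 library left out. The causes were not tested.

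The inducible share's difference ran from -1.115 to 4.656 percentage points with 1 library left out, and the 19S share's from -0.2069 to 2.7.

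Uncalled genes near 0 changed sign. With upper-quartile factors log2 fold changes were 0.026 for Psme4, 0.067 for Psmd11, 0.028 for Psma3, 0.042 for Psmb1, 0.064 for Psma4, 0.053 for Psmd10, 0.0261 for Psmb8, 0.101 for Psmb9 and 0.068 for Psmb10. Psmb9 was at 0.0267 with library totals and 0.0264 with 1 CPM in 3 libraries. With no filter Psmd8, Adrm1 and Pomp were at -0.056, -0.057 and -0.081. With the block Psmc2, Psmd8, Adrm1 and Pomp were at -0.0073, -0.037, -0.042 and -0.12. With 1 library left out the ranges were -0.14 to 0.013 for Psme4, -0.11 to 0.069 for Psmd11, -0.23 to 0.026 for Psmb5, -0.20 to 0.16 for Psmb1, -0.30 to 0.0063 for Psma5, -0.0046 to 0.19 for Psmc2, -0.064 to 0.13 for Psmd8, -0.34 to 0.022 for Psma1, -0.13 to 0.042 for Psma4, -0.23 to 0.27 for Psmd10, -0.063 to 0.11 for Adrm1, -0.12 to 0.23 for Pomp, -0.21 to 0.11 for Psmb8, -0.12 to 0.21 for Psmb9 and -0.20 to 0.17 for Psmb10.

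Replicate numbers follow the order of accession, and no pairs come from them. The labels do not say what the title numbers mark, so the block for their range is an alternative only. Control replicate 2 is the only library in its range, so it does not inform the contrast in the blocked fit. Calls gained with the block and without control replicate 2 are therefore not separate checks.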
